A study of Penicillium oxalicum with 18 samples.

Results

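The genes described here are 29 of the 9176 gene models of the filamentous fungus Penicillium oxalicum that were listed by the study. They were chosen by a rule on the deposited values, with no reference to function. Group levels were taken as log2 of the mean of 3 libraries plus 1, in FPKM, a unit that scales the fragments of a gene model by its length and by the mapped fragments of the library. A member had to stand at least 1 log2 unit higher in wild type on N-acetylglucosamine (GlcNAc) than in wild type on each of the other media. It also needed a mean of 10 FPKM or more there, and a difference between the vib1 deletion strain and wild type of less than 1 log2 unit in either direction in all 3 media. Those values chose the members, so the levels, the GlcNAc response and the strain differences are given as a description and no test of them is made. The wording "little affected by vib1" holds only in the sense of that limit: 27 of the 29 were lower in the deletion strain in GlcNAc, at a median strain difference of −0.60 log2 units. They are therefore called here the 29 GlcNAc-high genes within the strain limit.

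The study compared wild-type strain 114-2 with a vib1 deletion strain on 3 carbon sources, with 3 numbered libraries for each of the 6 combinations. Mycelia of both strains were pre-grown for 24 h at 30 °C with 2% glucose and moved for 24 h to modified Mendal's medium. That medium held 2% glucose, 2% GlcNAc, or 1% bran with 1% microcrystalline cellulose. How the deletion was made, and from how many transformants, is not stated in the labels. Nothing says that replicates were separate cultures, so p-values measure the spread between these libraries only, which may be technical.

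GlcNAc is the monomer of chitin, the structural polymer of fungal cell walls and insect cuticle. Fungi that use it take it up through a membrane transporter, phosphorylate it, remove the acetyl group and then the amino group, and feed the resulting fructose phosphate into glycolysis, with ammonium and acetate released on the way. In the yeast Candida albicans GlcNAc is also a signal that alters gene expression and cell shape. Vib1 belongs to the Ndt80 family of DNA-binding proteins, known in Neurospora crassa for heterokaryon incompatibility and the production of extracellular enzymes, and as XprG in Aspergillus nidulans for extracellular proteases. Another member of that family, RON1 of Trichoderma reesei, is known to regulate the genes of GlcNAc use.

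The deposited table gives gene model IDs without names. None of its IDs matched the reference table of strain HP7-1 available here (0 of 9176 IDs against 9964 rows), so the 29 members appear under their IDs, with no function, position or sequence. All 29 carried IDs starting with PDE. FPKM summed to between 915811 and 1119470 per library, lowest in the deletion strain in glucose and highest in wild type in GlcNAc. Read counts are unknown. The lowest values of 503 gene models gave relative library depths of 0.880 to 1.1, by a method that could hardly show larger differences. No member was at 0 in any library, and the lowest value of any member was 1.47 FPKM.

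The 29 genes are a small part of the wild type's GlcNAc-high genes. In wild type, 283 gene models met the conditions on GlcNAc, and 254 of these passed the strain limit in at least 1 medium. GlcNAc itself removed most of them: 231 of the 254 were past the limit there, 229 of them lower in the deletion strain and 2 higher. In glucose 136 were past it, 108 lower and 28 higher, and in bran plus cellulose 73 were past it, 26 lower and 47 higher. For 90 gene models GlcNAc was the only medium past the limit, against 10 for glucose and 7 for bran plus cellulose, and 39 were past it in all 3. The share within the limit was thus 10.2% of the GlcNAc-high genes. The same rule set for bran plus cellulose kept 68 of 326 genes (20.9%), and set for glucose it kept 36 of 180 (20%). These shares follow from the rule and were not tested against each other.

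**Figure D1:**
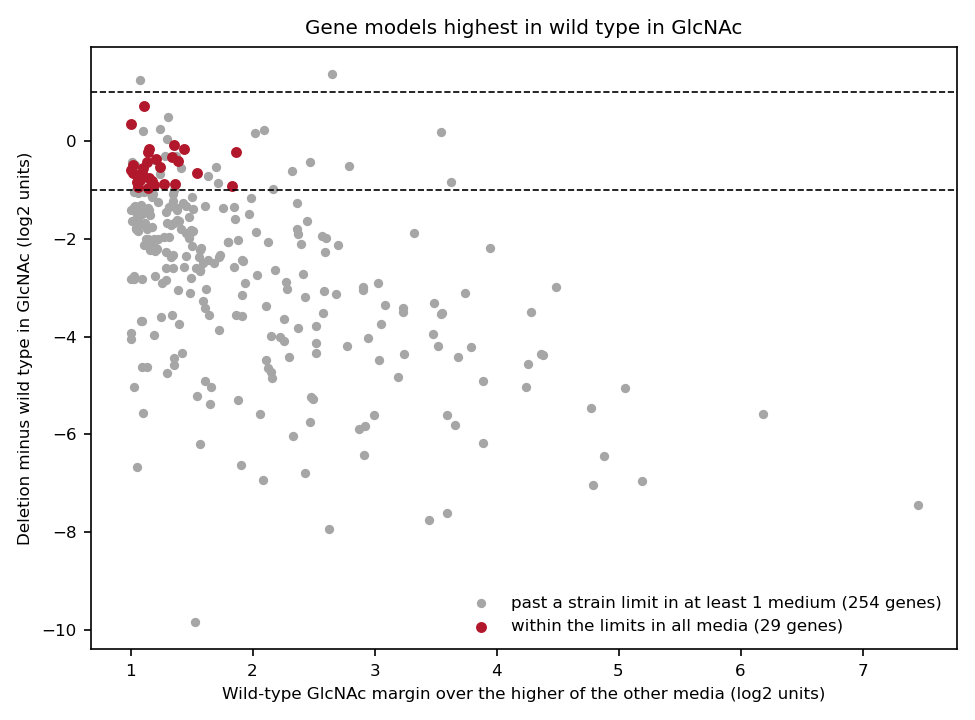
Each point is 1 of 283 gene models that met the wild-type conditions. The x axis is the wild-type GlcNAc margin, the log2 level in GlcNAc minus that in the higher of the other media, and the y axis is deletion minus wild type in GlcNAc, with dashed lines at the limits. The 29 members (red) lie at margins from 1.00 to 1.86, while the 254 others (grey) reach 7.45 on the x axis and −9.83 on the y axis.

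The members were of middling abundance and their GlcNAc margin was modest. The margin, the log2 level in GlcNAc minus the level in whichever other medium was higher, had a median of 1.15 in wild type and a range of 1.00 to 1.86 over the 29 members. It was under 1.2 for 18 of them and 1.5 or more for 3. The 254 other GlcNAc-high genes had a median margin of 1.61. Mean FPKM of the members in wild type in GlcNAc ran from 10.2 to 336 with a median of 38.4, against a median of 70.7 for the 254 others. Among the 6247 gene models at 10 FPKM or more in that group, the members' median stood at percentile 47.1. All 29 members had every wild-type GlcNAc library above all 6 other wild-type libraries, as did 251 of the 254 others. In that strain 33% of all 8455 gene models tested were called higher in GlcNAc than in glucose and 27.6% higher than in bran plus cellulose (limma, adjusted p under 0.05), and all 29 members were called in both, as the rule had chosen them to be.

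The most abundant member was PDE_05946. In wild type, PDE_05946 read 334, 326 and 348 FPKM in GlcNAc, 142, 135 and 159 FPKM in glucose and 55.6, 55.9 and 85.7 FPKM in bran plus cellulose. The deletion strain gave 314, 246 and 221 FPKM in GlcNAc, 75.1, 82.9 and 83.8 FPKM in glucose and 49.3, 51.3 and 45.4 FPKM in bran plus cellulose. Both strains had the highest values in GlcNAc and the lowest in bran plus cellulose, with glucose between them and no overlap between media. In wild type the means were 336 ± 11.05 FPKM in GlcNAc, 145 ± 12.4 in glucose and 65.7 ± 17.2 in bran plus cellulose (SD, n = 3).

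PDE_08476 followed in abundance. In wild type, PDE_08476 read 296, 303 and 303 FPKM in GlcNAc, 116, 120.3 and 125 FPKM in glucose and 148, 141 and 139.9 FPKM in bran plus cellulose. Deletion libraries held 143, 148 and 175 FPKM in GlcNAc, 78.7, 75.4 and 77.6 FPKM in glucose and 141, 128 and 107 FPKM in bran plus cellulose. Its GlcNAc libraries were the highest of their strain in both strains, narrowly so in the deletion strain, where the lowest GlcNAc value (143 FPKM) lay just above the highest bran plus cellulose value (141 FPKM). The GlcNAc mean was 300.5 ± 4.001 FPKM in wild type, and without vib1 155 ± 17.1 FPKM (SD, n = 3), a strain difference of −0.95 log2 units, close to the limit.

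The other members above 90 FPKM in wild type in GlcNAc included PDE_00741, PDE_04890, PDE_02190 and PDE_06504. PDE_00741 averaged 193 ± 13.4 FPKM in GlcNAc, 94.7 ± 9.29 in glucose and 75.8 ± 4.66 in bran plus cellulose in wild type. PDE_04890 averaged 154 ± 6.78, 57.6 ± 7.23 and 71.5 ± 7.83 FPKM in the same order. The GlcNAc mean of PDE_02190 was 113 ± 9.87 FPKM in wild type, and 66.4 ± 2.56 FPKM without vib1. For PDE_06504 it was 99.6 ± 4.13 and 50.2 ± 1.74 FPKM. These 4 genes had GlcNAc libraries in wild type that stood clear of every other library, and their GlcNAc values in the deletion strain were lower without overlap.

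The widest wild-type margins belonged to less abundant members. In wild type, PDE_06385 read 32.1, 34.5 and 31.9 FPKM in GlcNAc, 8.85, 7.06 and 9.03 FPKM in glucose and 6.47, 5.70 and 4.55 FPKM in bran plus cellulose. Values without vib1 were 25.4, 24.6 and 33.2 FPKM in GlcNAc, 17.9, 13.3 and 9.65 FPKM in glucose and 8.82, 7.51 and 7.61 FPKM in bran plus cellulose. Its margin of 1.86 log2 units in wild type was the highest of the 29, and in the deletion strain it was 0.97. In wild type, PDE_08026 read 35.6, 34.7 and 33.98 FPKM in GlcNAc, 9.66, 7.12 and 9.79 FPKM in glucose and 8.46, 7.91 and 10.7 FPKM in bran plus cellulose. Corresponding deletion libraries gave 18.8, 16.8 and 17.9 FPKM in GlcNAc, 12.8, 11.8 and 11.8 FPKM in glucose and 10.1, 8.99 and 9.64 FPKM in bran plus cellulose. PDE_08026 was highest in GlcNAc in both strains without overlap, and glucose, which overlapped bran plus cellulose in wild type, stood above it without vib1. The deletion strain had a margin of 0.52 against 1.84 in wild type. PDE_07897 had margins of 1.54 in wild type and 0.92 without vib1, PDE_06184 of 1.44 and 1.14, and PDE_04412 of 1.39 and 0.37.

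**Figure D2:**
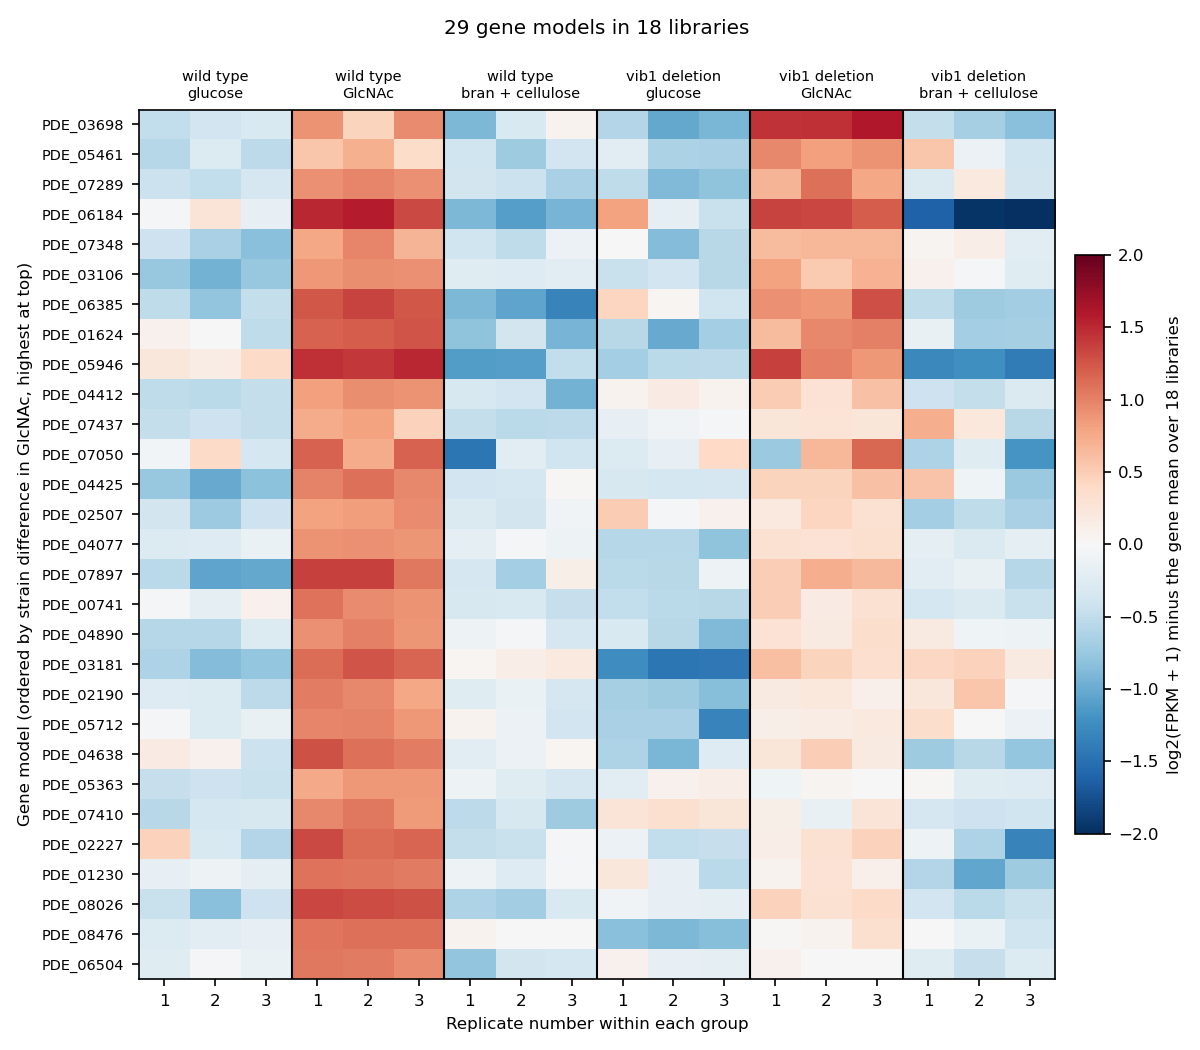
Colour gives log2(FPKM + 1) of each of the 29 members (rows) in each of the 18 libraries (columns), minus that gene's mean over all libraries. Wild type in GlcNAc is the reddest block for most rows, the deletion strain in GlcNAc is paler for most, and PDE_03698 and PDE_05461 in the top rows are redder in the deletion strain.

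Replicates agreed most closely in the group that defines the set. The coefficient of variation over 3 libraries had a median of 5.34% over the members in wild type in GlcNAc, 8.55% in the deletion strain in GlcNAc, and between 9.81% and 14.5% in the other 4 groups. This was not particular to the members. Over all gene models tested, log2 deviations from the group mean had an SD of 0.211 to 0.222 in the wild-type GlcNAc libraries. In all other libraries that SD was 0.230 to 0.384. The highest coefficient of any member in any group was 57.1%, for PDE_07050, whose deletion libraries in GlcNAc held 14.8, 40.8 and 57.5 FPKM. Other members came near it, as the highest coefficient was 41.4% to 53.6% in each of the glucose and bran plus cellulose groups. In wild type in GlcNAc it was 19.8%. Summed over the members, FPKM came to 2160, 2161 and 2095 in the wild-type GlcNAc libraries, 0.194% ± 0.00126 of the library total (SD, n = 3). The sum was 1452, 1409 and 1443 FPKM in the deletion strain in GlcNAc, or 0.153% ± 0.00396 of the total. In the other 4 groups the members made up between 0.0791% and 0.0843% of the total on average, in both strains. The deletion strain's GlcNAc libraries thus lay between the wild type's GlcNAc libraries and all libraries of the other media.

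In the deletion strain most members were still highest in GlcNAc, by a smaller margin. Its mean was highest in GlcNAc for 26 of the 29 members, and 18 (62.1%) had all 3 GlcNAc libraries above the other 6 of that strain. The share of all gene models with that separation was not counted. Over all gene models tested, 41.8% were called higher in GlcNAc than in glucose in this strain and 41.3% higher than in bran plus cellulose (limma, adjusted p under 0.05). Of the members, 22 were called higher than in glucose and 23 higher than in bran plus cellulose. The limit on the strain difference acts on each medium separately, so these counts are not independent of the rule and nothing is read from them. It did not hold the response itself close to the wild type's, as the margins show. The median margin was 0.52 log2 units against 1.15 in wild type, and 4 members kept a margin of 1 log2 unit or more. The rule asked for a margin of at least 1 log2 unit in wild type and for none in the deletion strain. It thus favours a narrower margin in the deletion strain. Of the 254 other GlcNAc-high genes, 69 (27.2%) had their highest mean in GlcNAc in the deletion strain, and the median margin there was −0.79. In 45 of these 254 (17.7%) all 3 GlcNAc libraries of that strain lay above its other 6. Of these 254, 229 were past the strain limit by lower deletion values in GlcNAc. Their contrast with the members therefore also follows largely from the rule.

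PDE_03698 had the widest margin in the deletion strain. In wild type, PDE_03698 read 12.6, 8.86 and 13.01 FPKM in GlcNAc, 4.16, 4.56 and 4.84 FPKM in glucose and 2.87, 4.88 and 6.60 FPKM in bran plus cellulose. The vib1 deletion libraries read 18.6, 18.9 and 20.9 FPKM in GlcNAc, 3.84, 2.55 and 2.86 FPKM in glucose and 4.21, 3.57 and 3.06 FPKM in bran plus cellulose. The 3 deletion libraries in GlcNAc lay above all wild-type libraries, and the margin was 2.15 log2 units against 1.11 in wild type. PDE_05946, with 1.68 against 1.21, and PDE_01624, with 1.36 against 1.34, also had a margin at least as wide as in wild type. The remaining 26 members had a narrower one, the direction that the rule favours. In wild type, PDE_01624 read 53.3, 54.1 and 56.4 FPKM in GlcNAc, 24.5, 22.6 and 15.8 FPKM in glucose and 12.7, 17.6 and 11.6 FPKM in bran plus cellulose. The deletion strain gave 35.95, 45.7 and 47.2 FPKM in GlcNAc, 15.2, 10.9 and 13.9 FPKM in glucose and 20.5, 13.9 and 14.01 FPKM in bran plus cellulose. In both strains the GlcNAc libraries of PDE_01624 stood clear of the others.

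At the other end were PDE_07410, PDE_02190 and PDE_05363, whose mean in the deletion strain was not highest in GlcNAc. In wild type, PDE_07410 read 69.7, 74.4 and 64.7 FPKM in GlcNAc, 23.9, 27.6 and 28.00 FPKM in glucose and 24.3, 28.2 and 21.2 FPKM in bran plus cellulose. Deletion libraries held 38.4, 31.7 and 42.2 FPKM in GlcNAc, 42.5, 44.5 and 42.2 FPKM in glucose and 27.9, 26.4 and 26.5 FPKM in bran plus cellulose. In the deletion strain the order of PDE_07410 differed from wild type, with glucose overlapping GlcNAc at the top. PDE_02190 averaged 66.4 ± 2.56 FPKM in GlcNAc and 71.3 ± 14.6 FPKM in bran plus cellulose in the deletion strain, with overlapping libraries. PDE_05363 averaged 45.7 ± 2.31 FPKM in GlcNAc and 46.2 ± 5.97 FPKM in glucose there, also with overlap.

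**Figure D3:**
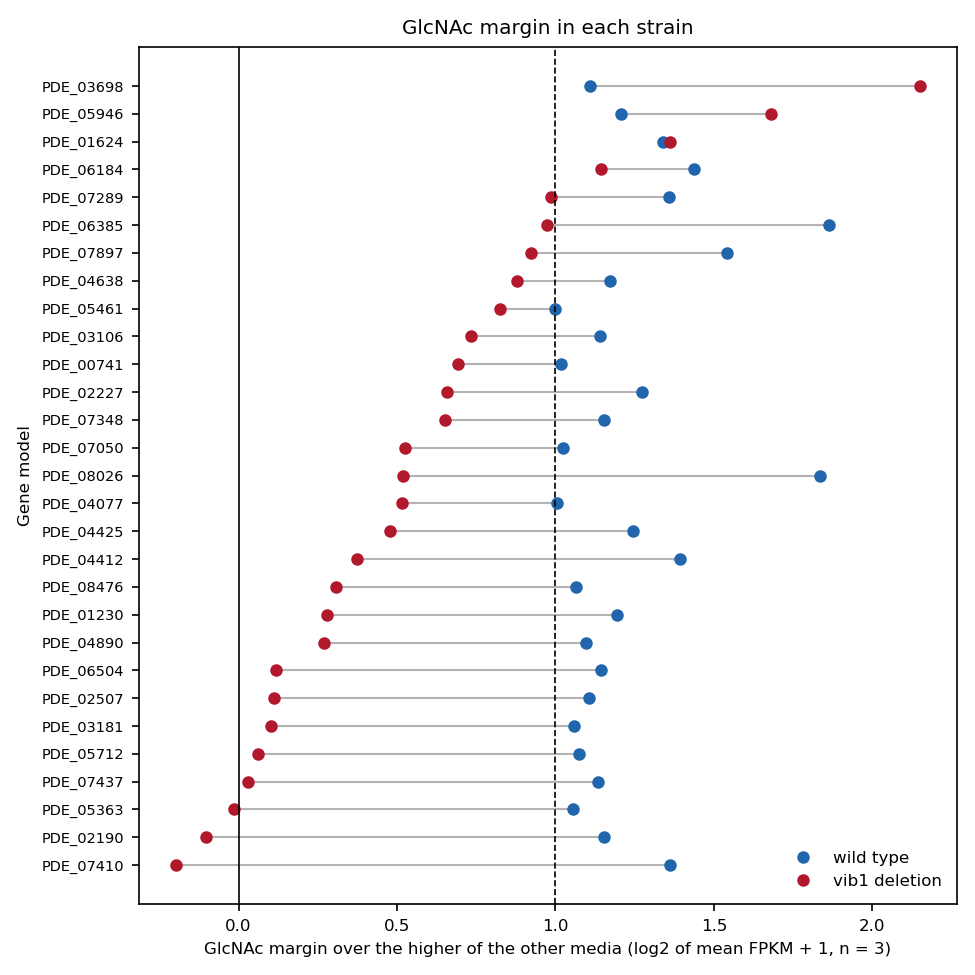
For each of the 29 members the x axis gives the GlcNAc margin (log2 of mean FPKM + 1, n = 3 libraries) in wild type (blue) and in the vib1 deletion strain (red), with a dashed line at the rule's limit of 1. All wild-type points lie at or right of 1.00, and the deletion points run from −0.20 to 2.15 with 3 left of 0.

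How far the choice of members carries over to libraries it had not used was seen by applying the rule to 2 replicates of each group and reading the third. With replicate 1 held out, 30 gene models were chosen, and GlcNAc gave the highest wild-type value for 28 of them in the held-out libraries. For replicate 2 this held for 29 of 29, and for replicate 3 for 26 of 26, where 35.4% to 36.4% of all 9176 gene models have it in a single set of libraries. A margin of at least 1 log2 unit was met by 23, 25 and 13 of them, against 4.27% to 4.76% of all gene models. The strain limit in all media was met by 21, 21 and 23, where 51.4% to 53.8% of all gene models meet it. All conditions at once were met by 16 of 30, 18 of 29 and 11 of 26, against 0.251% to 0.327% of all gene models. In the held-out deletion libraries GlcNAc was highest for 19, 24 and 26 of the chosen genes, against 38.5% to 44.2% of all gene models. Each held-out value is a single library per group, so these are counts without a test per gene. The chosen genes had already met the rule in other libraries of the same groups, and all gene models include many at 0. A large excess over all gene models was therefore likely beforehand. If the replicates are technical, the held-out libraries are no independent check.

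Within the limit, the strain difference was not centred on 0 in every medium. In GlcNAc it ran from −0.97 to 0.71 log2 units with a median of −0.60, and 27 members were below 0. For 23 members all 3 deletion libraries lay below all 3 wild-type libraries, and for 2 they lay above. Among the 254 other GlcNAc-high genes they lay below for 243 and above for 5. A strain difference below 0 was found for 245 of those 254 and for 41% of all gene models. Lower values in the deletion strain were thus not particular to the members. The share of all gene models with all deletion libraries on 1 side was not counted. Over all 8455 gene models tested 29.7% were called lower in the deletion strain in GlcNAc and 44.8% higher, and 20 members were called lower and 1 higher (limma, adjusted p under 0.05). The rule used this contrast, so the counts are listed only. In glucose the median was −0.00 (15 members below 0 and 14 above), with 9 members called lower and 8 called higher beside 22.8% and 42.1% of all gene models. In bran plus cellulose the median was 0.13 (12 below 0 and 17 above), with 3 called lower and 2 higher beside 13.5% and 13.2%.

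The strain difference in GlcNAc depends on how libraries are scaled. Wild type in GlcNAc had the highest FPKM totals, and setting every library to the same total moved the members' median in GlcNAc from −0.60 to −0.37 with 23 of 29 below 0, while the median of all gene models moved from 0.15 to 0.35. Median-ratio rescaling put the median of all gene models at 0 and that of the members at −0.84, with 27 below 0. In glucose the members' median went to −0.19 under median-ratio rescaling and to 0.13 under equal totals, so its sign there changes with the scaling. In bran plus cellulose it stayed between 0.11 and 0.13 under the 3 scalings and as deposited.

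The ends of the range in GlcNAc were PDE_06504, at −0.97 log2 units, and PDE_03698, at 0.71. In wild type, PDE_06504 read 103, 101 and 94.9 FPKM in GlcNAc, 41.02, 48.1 and 44.5 FPKM in glucose and 28.00, 37.7 and 38.2 FPKM in bran plus cellulose. Values without vib1 were 52.2, 49.4 and 49.1 FPKM in GlcNAc, 52.3, 43.8 and 42.6 FPKM in glucose and 41.2, 35.2 and 40.5 FPKM in bran plus cellulose. The strains overlapped in both other media and stood apart in GlcNAc, where the deletion strain was lower. PDE_05461 was the only other member above 0 in GlcNAc. In wild type, PDE_05461 read 49.1, 54.3 and 42.7 FPKM in GlcNAc, 21.8, 27.02 and 22.7 FPKM in glucose and 24.8, 19.7 and 25.00 FPKM in bran plus cellulose. Corresponding deletion libraries gave 65.3, 58.8 and 62.5 FPKM in GlcNAc, 28.4, 20.96 and 20.6 FPKM in glucose and 48.7, 30.4 and 24.8 FPKM in bran plus cellulose. Its deletion libraries in GlcNAc were all above the wild-type ones, while the strains overlapped in glucose and in bran plus cellulose. PDE_02507, the least abundant member, went the other way: in GlcNAc it read 9.79, 10.03 and 10.9 FPKM in wild type against 6.07, 7.31 and 6.59 without vib1, and 3.75, 2.71 and 3.60 against 7.77, 4.96 and 5.51 in glucose. The deletion strain was thus lower in GlcNAc and higher in glucose without overlap, by −0.55 and 0.70 log2 units.

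**Figure D4:**
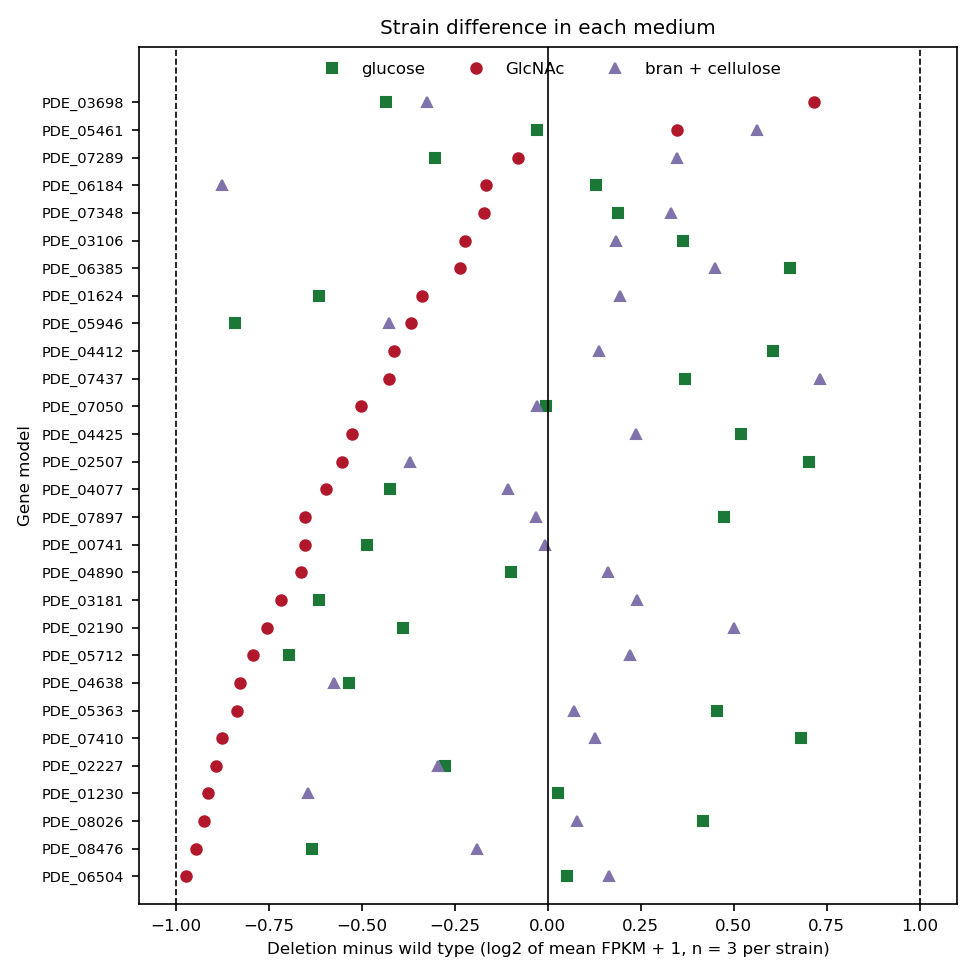
Deletion minus wild type for each of the 29 members in glucose (squares), GlcNAc (circles) and bran plus cellulose (triangles), as the difference of log2(mean FPKM + 1) with 3 libraries per strain. Dashed lines mark the rule's limits; 27 of 29 circles lie left of 0, against 15 squares and 12 triangles.

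The limits cut through a continuum of values. The member on the limit of the margin was PDE_05461, at exactly 1 log2 unit, and the nearest gene model outside that met all other conditions was PDE_00437 at 0.99. At the lower limit of the strain difference in GlcNAc the nearest member was PDE_06504 at −0.97 and the nearest outside was PDE_06947 at −1.05, among the 89 gene models that this limit alone left out. The upper limit in GlcNAc alone left out 1, PDE_09139 at 1.36. In glucose the outermost members were PDE_05946 at −0.84 and PDE_02507 at 0.70, and in bran plus cellulose PDE_06184 at −0.88 and PDE_07437 at 0.73. Among the gene models left out by 1 of these limits alone, the nearest were PDE_03889 at −1.46 and PDE_07044 at 1.02 in glucose, and PDE_02415 at −1.29 and PDE_02932 at 1.22 in bran plus cellulose. The level of 10 FPKM lay between PDE_02507 at 10.2 FPKM and, of the gene models that met all other conditions, PDE_06447 at 9.50 FPKM. Leaving out any 1 of the 18 libraries gave 27 to 30 genes, of which 26 to 29 were among the 29, and 18 members were chosen in all 18 cases. Under each of the 5 other pseudocounts and scalings tried only 7 members stayed in the set, namely PDE_01624, PDE_02190, PDE_04412, PDE_04425, PDE_06385, PDE_07289 and PDE_07897. PDE_00741, PDE_05363, PDE_05461 and PDE_07050 stayed under 1 of the 5.

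What the rule left free was the order of the other media, bran plus cellulose against glucose. Here the members were called in both directions, as all gene models were, and the shares were not tested against each other. In wild type, 5 of the 29 (17.2%) were called higher in bran plus cellulose and 6 (20.7%) lower, beside 32.4% and 15.9% of all gene models. Calls were made with limma on log2(FPKM + 1), at a Benjamini-Hochberg adjusted p under 0.05 over all gene models. The members' median log2 difference was 0.01, against 0.14 over all gene models. In the deletion strain 10 (34.5%) were called higher and 8 (27.6%) lower, beside 28.4% and 34.1% of all, with medians of 0.16 and −0.06. The same direction was called in both strains for 6 members, 3 higher and 3 lower, and opposite calls for 0. The limit on the strain difference favours like directions, and the difference between the strains was not tested. Calls in neither strain were seen for 6 members. The 5 became 2 when replicate 2 of wild type in glucose was left out, and 3 when wild-type replicate 1 in bran plus cellulose was left out. Median-ratio rescaling left 2 and quantile normalization 3.

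PDE_03181 was the member most raised on bran plus cellulose. In wild type, PDE_03181 read 62.9, 69.8 and 64.8 FPKM in GlcNAc, 18.2, 15.1 and 16.2 FPKM in glucose and 29.3, 31.1 and 32.7 FPKM in bran plus cellulose. The vib1 deletion libraries read 43.6, 39.1 and 36.1 FPKM in GlcNAc, 11.5, 9.87 and 9.95 FPKM in glucose and 38.5, 39.6 and 32.5 FPKM in bran plus cellulose. In both strains the 3 media stood in the order GlcNAc, bran plus cellulose, glucose, and in the deletion strain the upper pair overlapped. The limma log2 difference between bran plus cellulose and glucose was 0.87 ± 0.096 (SE) in wild type (adjusted p = 3.6e-06) and 1.72 ± 0.096 in the deletion strain (adjusted p = 5.73e-10).

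PDE_06184 and PDE_05946 fell on bran plus cellulose in both strains. In wild type, PDE_06184 read 26.9, 28.3 and 23.5 FPKM in GlcNAc, 8.54, 10.8 and 7.81 FPKM in glucose and 4.25, 3.60 and 4.19 FPKM in bran plus cellulose. The deletion strain gave 24.2, 23.9 and 21.7 FPKM in GlcNAc, 16.1, 7.56 and 6.26 FPKM in glucose and 2.19, 1.53 and 1.47 FPKM in bran plus cellulose. Bran plus cellulose gave the lowest values of PDE_06184 in each strain, without overlap with glucose. Its limma log2 difference was −0.99 ± 0.233 (SE) in wild type (adjusted p = 0.00265) and −1.91 ± 0.233 in the deletion strain (adjusted p = 3.92e-06). For PDE_05946, whose values are given above, the difference was −1.16 ± 0.148 in wild type (limma adjusted p = 1.65e-05) and −0.72 ± 0.148 in the deletion strain (limma adjusted p = 0.000636). PDE_06385 also fell in both strains, by 0.51 and 0.67 on the log2 scale (limma adjusted p = 0.0291 and 0.0043). In wild type that call was lost with a pseudocount of 5 and without replicate 2 or 3 in bran plus cellulose or replicate 1 or 3 in glucose, with adjusted p between 0.000374 and 0.109 over 28 alternatives.

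PDE_03106 and PDE_08476 rose on bran plus cellulose in both strains. PDE_03106 read 7.26, 6.26 and 7.30 FPKM in glucose and 10.8, 10.7 and 11.2 in bran plus cellulose in wild type, against 9.32, 9.78 and 8.54 and 13.8, 12.8 and 10.9 in the deletion strain. Its limma log2 difference was 0.59 ± 0.094 in wild type (adjusted p = 0.000128) and 0.40 ± 0.094 in the deletion strain (adjusted p = 0.00179). PDE_08476 differed by 0.25 ± 0.090 in wild type (limma adjusted p = 0.0348, from 0.0115 to 0.317 over 28 alternatives, 6 of which ended the call) and by 0.68 ± 0.090 in the deletion strain (limma adjusted p = 9.41e-06). Median-ratio rescaling and the omission of wild-type replicate 1 or 2 in either medium made up 5 of these 6.

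PDE_02190 and PDE_02507 were called in the deletion strain and not in wild type. PDE_02190 rose from 37.01, 35.8 and 32.3 FPKM in glucose to 69.4, 86.8 and 57.7 in bran plus cellulose, by 0.99 ± 0.122 log2 units (SE; limma adjusted p = 4.64e-06). In wild type it read 49.02, 48.8 and 40.6 and 49.8, 53.5 and 46.8 FPKM (limma adjusted p = 0.455). PDE_02507 fell from 7.77, 4.96 and 5.51 to 2.85, 3.32 and 2.93 FPKM, a difference of −0.79 ± 0.144 log2 units (limma adjusted p = 0.000201), and read 3.75, 2.71 and 3.60 and 4.05, 3.77 and 4.84 FPKM in wild type (limma adjusted p = 0.143). PDE_04425 was called in wild type and not in the deletion strain, at 0.63 ± 0.222 log2 units (limma adjusted p = 0.0303) and 0.26 ± 0.222 (limma adjusted p = 0.333). The wild-type call of PDE_04425 was lost under median-ratio rescaling, under quantile normalization and without replicate 2 or 3 in glucose or replicate 3 in bran plus cellulose (highest adjusted p = 0.155). That a call was made in 1 strain does not show that the strains differ.

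**Figure D5:**
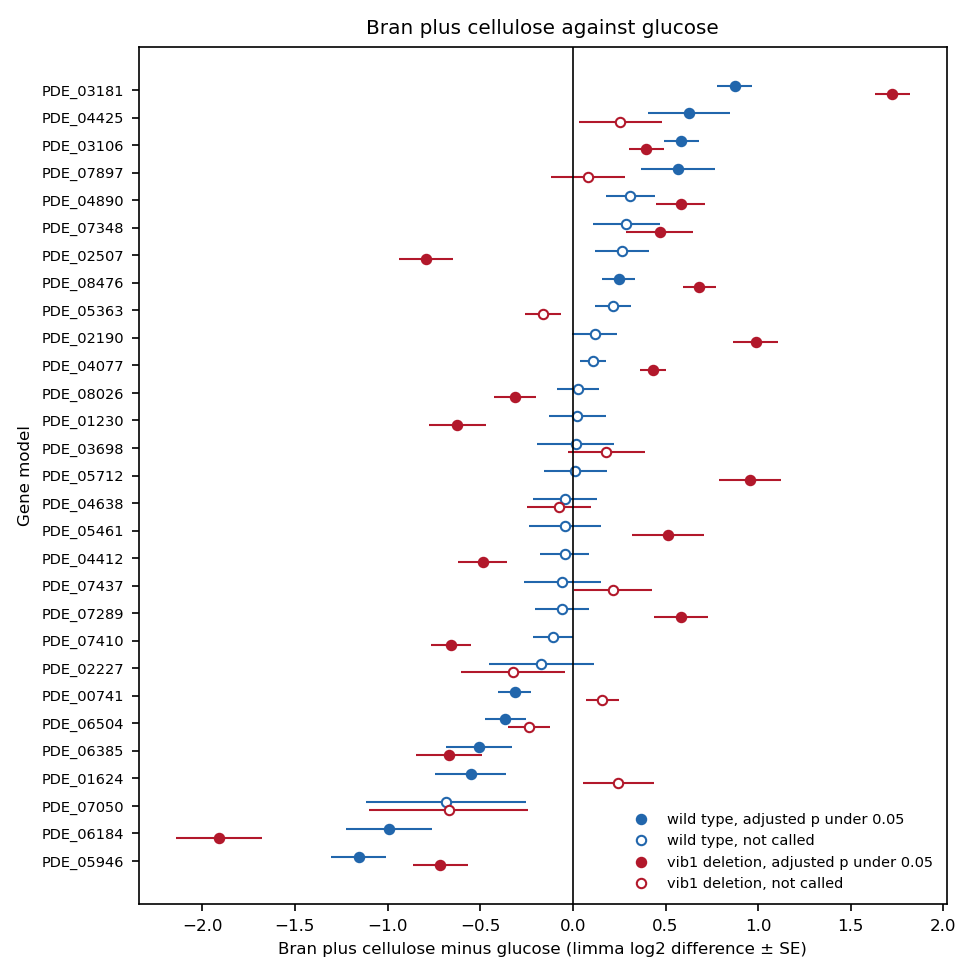
Limma log2 difference between bran plus cellulose and glucose with its standard error for each of the 29 members, in wild type (blue) and the vib1 deletion strain (red), filled where the adjusted p was under 0.05. Filled points lie on both sides of 0 in each strain, 5 right and 6 left in wild type and 10 right and 8 left in the deletion strain, and the outermost points are PDE_03181 and PDE_06184 in the deletion strain and PDE_03181 and PDE_05946 in wild type.

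The IDs of the members are spread through the numbering. No member carried a number next to another member's, and the closest pair of numbers lay 13 apart. Of the 53 gene models numbered directly before or after a member, 3 (5.66%) were themselves among the 283 GlcNAc-high genes, against 3.08% of all gene models. The labels and the table do not state whether consecutive numbers stand for neighbouring genes.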

How the data were processed

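The 18 libraries were grouped by their titles into 6 groups of 3, and mapped to the table by column name. Per the labels' protocols, cDNA bound on oligo(dT) beads was cut with NlaIII and short tags released with MmeI were sequenced. The authors deposited FPKM per gene model and library, per the file headers, and no aligner, quantifier, genome build or source of gene lengths is named in them. Tags sample a transcript at few sites, so levels of different genes are less comparable than those of 1 gene across libraries.

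Members and lists were chosen with earlier results of these data known. Levels for the rule used log2(mean FPKM + 1). Tests used log2(FPKM + 1) of each library, a scale that understates the differences of low genes. A gene model entered with 1 FPKM or more in 3 or more libraries (8455 tested, 721 left out, all 29 members in), and 1 model with 6 group means was fitted with limma 3.58.1 in R 4.3.3 (eBayes, trend and robust set, residual df 12), with two-sided tests and Benjamini-Hochberg adjustment. The fit was tested on simulated data. Tables and plots used pandas 2.3.3 and matplotlib 3.10.9 in Python 3.11.15.

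Named members were the 6 most abundant, the 6 with the widest margin, those called with the largest differences between bran plus cellulose and glucose without overlap, the ends of the strain difference in GlcNAc and those nearest the limits. Members listed as staying in the set, those with calls in both strains, and those whose deletion mean was not highest in GlcNAc were chosen after their values were seen, as were PDE_07050, PDE_01624 and PDE_05363. Lists by gene function could not be applied without gene names. Alternatives were pseudocounts of 0.1 and 5, 3 scalings, other filters, a threshold of 1 log2 unit, limma without trend and robust, only the groups compared, a replicate block and leaving out each library.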

Additional observations from a re-analysis of the deposited data

Results flagged for a closer look

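For 12 members every deletion library moved one way against wild type in 1 medium and the opposite way in another, or every library moved oppositely between media in the 2 strains. None of these differences was tested, because the rule had used the strain contrasts. The share of all gene models with such patterns was not counted. Over all gene models tested, 42.1% were called higher in the deletion strain in glucose and 29.7% lower in GlcNAc (limma, adjusted p under 0.05). The rule also asked for high wild-type values in GlcNAc, which favours lower deletion values there. In glucose against GlcNAc, 8 members were above wild type in glucose and below it in GlcNAc. Their strain differences in glucose exceeded those in GlcNAc by 1.25 log2 units for PDE_02507, 0.59 for PDE_03106, 1.02 for PDE_04412, 1.04 for PDE_04425, 1.29 for PDE_05363, 1.56 for PDE_07410, 0.79 for PDE_07437 and 1.34 for PDE_08026. PDE_03698 was the 1 member with the reverse pattern, at −1.15.

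Between glucose and bran plus cellulose the strain difference of PDE_02190 differed by −0.89 log2 units, that of PDE_07289 by −0.65 and that of PDE_02507 by 1.07. Between GlcNAc and bran plus cellulose that of PDE_02190 differed by −1.26. From glucose to bran plus cellulose, PDE_00741 was lower in every wild-type library and higher in every deletion library, and its responses differed by 0.48 log2 units. PDE_02507 had the opposite pattern, at −1.07.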

How the results depend on the processing

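The number of members was 19 under median-ratio rescaling, with 16 of the 29 among them, and stayed between 21 and 30 under the other 4 pseudocounts and scalings. With a pseudocount of 5 it was 24, of which 15 were among the 29. Leaving out each library gave 27 to 30 members, 3 to 6 with a margin of 1 log2 unit or more in the deletion strain, and, for bran plus cellulose against glucose, 2 to 7 members higher and 4 to 6 lower in wild type. Without vib1 these ranges were 8 to 12 and 7 to 9. The 5 members called higher in wild type became 2 under median-ratio rescaling and 3 under quantile normalization. Requiring also a difference of at least 1 log2 unit left 0 higher and 1 lower in wild type, and without vib1 1 of each. The 0 compares with 5 calls at the adjusted p alone, and 13 members had an unadjusted limma p under 0.05 in wild type in either direction. For the rescalings the cause was not tested. Of the 11 calls in wild type 5 held under every alternative that kept the adjusted p as the only threshold, and of the 18 in the deletion strain 14 held. PDE_02507, counted among the 14, did not pass the filter at 10 FPKM in 3 libraries, so its call was not tried there. None of the calls in either strain changed sign. With the replicate number as a block the counts were 4 and 6 in wild type, where PDE_08476 lost its call, and 10 and 8 without vib1. Deviations of same-numbered libraries correlated between −0.0442 and 0.125 in wild type and between −0.0772 and 0.0483 in the deletion strain for these media. In wild type 4 of 6 libraries correlated best with their own number, and in the deletion strain 2 of 6. So few correlations cannot settle whether the numbers pair the samples, and no pairing was assumed in the main fit. Read depth is unknown, so no counting error or detection limit is given, and all calls rest on 3 libraries per group.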

Other observations

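Beside 3 members, chosen here after their values were seen, stood a gene model of adjacent number that also met the wild-type GlcNAc conditions but lay far past the strain limit. PDE_07409, numbered just before PDE_07410, read 363, 371 and 324 FPKM in wild type in GlcNAc and 4.38, 4.41 and 9.90 FPKM in the deletion strain, and in glucose 36.7, 46.2 and 47.4 and 58.8, 44.8 and 57.4 FPKM. Its strain difference was −5.61 log2 units in GlcNAc, against −0.88 for PDE_07410, and 0.30 in glucose. PDE_05462, numbered just after PDE_05461, read 1010.1, 1088 and 907 FPKM in wild type in GlcNAc and 55.6, 49.6 and 40.1 FPKM in the deletion strain. It differed by −4.34 log2 units there, where PDE_05461 differed by 0.35. In glucose PDE_05462 also stood lower in the deletion strain, at 3.000, 3.33 and 2.88 FPKM against 102, 78.8 and 87.3 in wild type. PDE_07290, numbered just after PDE_07289, read 78.98, 77.7 and 79.2 FPKM in wild type in GlcNAc and 14.6, 1.27 and 8.70 FPKM in the deletion strain, a strain difference of −3.11 log2 units against −0.08 for PDE_07289. These are values of single gene models and no test was made of adjacent numbers.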
